A study of Mus musculus with 6 samples.

Results

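The genes described here build, cross-link, cut or protect the extracellular matrix of the liver, or mark the stellate cells that make much of it. They were chosen by a rule on gene names, with earlier results of these data known. The rule took collagen chains, laminins, metalloproteinases and their Timp inhibitors, Adamts proteases, fibulins and lysyl oxidases. Decorin, lumican, biglycan, fibronectin, Sparc, desmin, smooth muscle actin, reelin, lecithin retinol acyltransferase and the platelet-derived growth factor receptor beta were added singly. The annotation of the arrays gave 95 such genes out of 12393 named genes, on 152 probe sets (a probe set is the group of array features that together measure a transcript), and each gene is given by its brightest probe set. Liver RNA of male chromogranin A knockout mice (Chga KO, 3 arrays) and male wild-type mice (WT, 3 arrays), all aged 12 weeks and given no treatment in the labels, was compared. The labels cite 1 earlier publication for both strains, and the genetic background and the design of the deletion are not given in the sources used here. Values are intensities in arbitrary units, scaled by the authors to a common level per array. They may be compared between arrays for a probe set, not between probe sets.

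In healthy liver the matrix is thin. Hepatic stellate cells store vitamin A as retinyl esters, lie between hepatocytes and the sinusoidal endothelium, and on injury turn into myofibroblasts that deposit fibrillar collagen. Metalloproteinases cut the matrix, and Timp proteins bind and block them, so the amount of matrix reflects both synthesis and breakdown. Chromogranin A is a granule protein of neuroendocrine cells and the source of several secreted peptides.

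Chga had 61.5, 44.5 and 231 units in KO livers, against 167, 185 and 42.5 units in WT livers. Only 1 array in each group was above background, so the targeted gene does not check the labels. The background is the 95th percentile of 27 Bacillus control probe sets on each array, which ran from 174 to 322 units in KO arrays and from 151 to 229.9 units in WT arrays. The share of probe sets above it ran from 64.4% to 74.7% in KO arrays and from 69.2% to 76.9% in WT arrays. Albumin (Alb), the main hepatocyte product, had 178997, 210871 and 202527 units in KO livers, against 170787, 161495 and 187904 units in WT livers, and was high on every array. The extraction label gives 3 mice per group and does not say how mice and arrays correspond.

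No gene of the matrix and stellate cell group passed the test between KO and WT liver. By its brightest probe set, the metalloproteinase inhibitor Timp3 was nearest to it and read higher on all 3 KO arrays. The other tested Timp3 probe sets overlapped between the groups. Next came the fibrillar collagen Col3a1, the proteoglycan lumican (Lum) and reelin (Reln), which read lower on all 3 KO arrays by their brightest probe sets. Most other collagens, the laminins, fibronectin, decorin, biglycan and the stellate cell genes Lrat and Pdgfrb overlapped between the groups by their brightest probe sets. In whole liver, fewer cells of a type and less RNA per cell cannot be told apart.

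In numbers, 43 of the 95 genes were bright enough to be tested and 0 of these 43 had an adjusted p under 0.05 (limma with Benjamini-Hochberg over 13576 probe sets), where 0.376% of all tested probe sets passed. The smallest adjusted p was 0.0763. At an unadjusted p under 0.05 there were 4 of 43 genes, or 9.30%, beside 10.3% of all 8047 tested genes and 9.97% of all tested probe sets. Fold changes are given as KO minus WT differences of log2(intensity + 16), and the added 16 shrinks the fold of dim probe sets. On this scale 24 of the 43 were lower and 19 higher in KO liver, and 52.7% of all tested genes were lower. The median change was -0.01 among the 43 genes and -0.02 among all tested genes. The 3 KO arrays lay above the 3 WT arrays for 2 of the 43 genes (4.65%), beside 7.77% of all tested genes, and below them for 5 (11.6%), beside 7.84%. The counts of the group are near the shares of all tested genes. When only the upper 40% of probe sets by mean was tested, 18 of the genes were left. Of these, 13 (72.2%) were lower, beside 53.3% of all genes then tested, and the median was -0.12, beside -0.02. Then 4 of 18 genes (22.2%) had an unadjusted p under 0.05, beside 12.0% of all genes then tested.

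**Figure D1:**
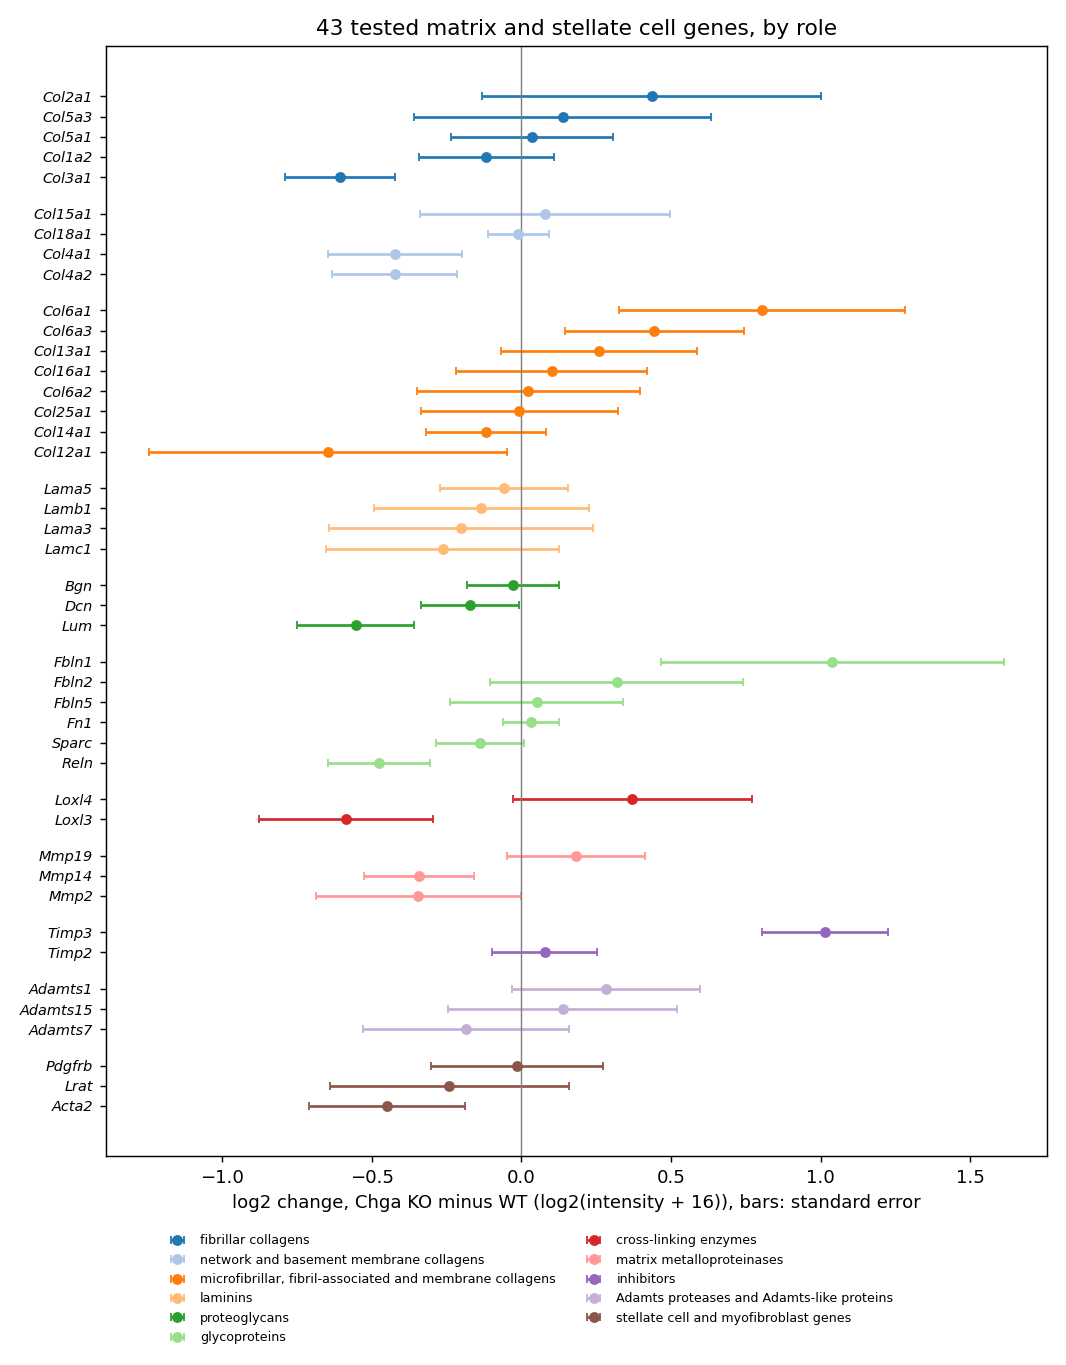
Log2 change, KO minus WT, of the 43 tested genes (points) with the standard error of the fit (bars), ordered by role from top to bottom. Timp3, at 1.01 ± 0.21, lies farthest from 0 relative to its bar, and no gene passed the adjusted threshold.

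Of the Timp inhibitors, 2 of 4 were tested. Timp3, which stays bound to the matrix and blocks metalloproteinases and some Adam and Adamts proteases, had 2709.5, 2909.9 and 2384 units in KO livers, against 1172, 1832 and 1042 units in WT livers. Every KO array was above every WT array, and the difference of the means, 2668 ± 265 against 1349 ± 424 units (SD, n = 3 each), exceeded the SD of either group. The log2 change was 1.01 ± 0.21 (SE), which is 2.02-fold, with an adjusted p of 0.0763 in limma. Without WT replicate 2, the highest of the WT arrays, the change was 1.25 and the adjusted p 0.0207, so that 1 gene of the group then passed.

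The other Timp3 probe sets did not give the same answer. A second one had 1084, 1002 and 835 units in KO livers, against 1364, 1242 and 803 units in WT livers, a change of -0.19 ± 0.24 (adjusted p = 0.829). The dimmest tested one had 403, 555 and 473 units in KO livers, against 473, 347 and 141 units in WT livers, a change of 0.69 ± 0.46 (adjusted p = 0.662). Averaged over the 3 tested probe sets, Timp3 stood at 0.50 (adjusted p = 0.550). An untested Timp3 probe set overlapped, at 267, 99.4 and 44.5 units in KO livers, against 103, 141 and 80.1 units in WT livers. Timp2, which blocks metalloproteinases and takes part in the activation of pro-Mmp2, had 1594, 1209 and 1244 units in KO livers, against 1245, 1303 and 1256 units in WT livers. Its groups overlapped, with a change of 0.08 ± 0.18 (adjusted p = 0.921), and its 4 tested probe sets ran from -0.06 to 0.46. Timp1, the inhibitor known for its induction in injured liver, was too dim to test, at 232, 136 and 16.6 units in KO livers, against 148, 258 and 212 units in WT livers. Timp4 was also untested, at 581, 134 and 75.8 units in KO livers, against 43.2, 41.4 and 64.3 units in WT livers, with 1 KO array and no WT array above background.

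**Figure D2:**
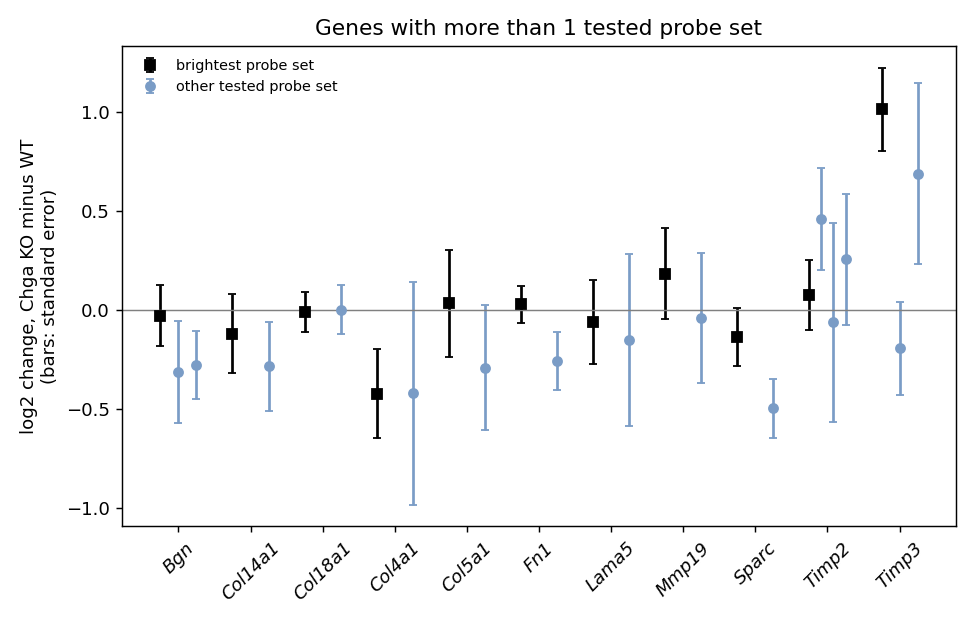
Log2 change, KO minus WT, of each tested probe set of the 11 genes that have more than 1 (squares: the brightest probe set; circles: the others; bars: standard error). The Timp3 probe sets span -0.19 to 1.01, and those of Sparc both lie below 0.

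Among 9 fibrillar collagens 5 were tested, 3 higher and 2 lower, with a median of 0.04. Col3a1, the chain of type III collagen, which forms the reticular fibres of the liver, had 1396, 1455 and 1483 units in KO livers, against 2099, 2839.9 and 1797 units in WT livers. The KO arrays lay close together and all below the WT arrays. The log2 change was -0.61 ± 0.18, or 0.657 of the WT level, with an adjusted p of 0.261 (unadjusted 0.00754). Over the alternatives run it stayed between -0.75 and -0.42, with adjusted p-values from 0.208 to 0.637. A dim, untested Col3a1 probe set overlapped, at 82.0, 228 and 216 units in KO livers, against 173, 298 and 179 units in WT livers.

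Type I collagen, the main fibre of scar tissue, was tested by its alpha 2 chain only, and its difference from Col3a1 was not tested. This chain, Col1a2, had 1015, 983 and 1435 units in KO livers, against 1367, 946 and 1415 units in WT livers, a change of -0.12 ± 0.23 with overlapping groups (adjusted p = 0.902). A dim, untested Col1a2 probe set also overlapped, at 204, 87.4 and 11.7 units in KO livers, against 117, 235 and 351 units in WT livers. The alpha 1 chain Col1a1 was too dim to test, at 266, 229 and 212 units in KO livers, against 264, 136 and 526 units in WT livers. Col5a1, whose type V collagen sets the diameter of type I fibres, stood at 0.04 ± 0.27 by its brightest probe set and at -0.29 ± 0.32 by the other. Col5a3 stood at 0.14 ± 0.50, and Col5a2 was untested. Col2a1, best known from cartilage, was at 0.44 ± 0.57 and above background in 2 of 3 WT arrays.

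Type IV collagen forms the sheet of basement membranes, and its chains alpha 1 and alpha 2 are wound into the same molecule. Their genes lie head to head on opposite strands. The promoter windows of both are shown and were picked after the 2 changes were seen. Both changes were -0.42, and neither passed the threshold. Whether the shared stretch bears on either change was not tested. Each window holds 250 bases before and 50 bases after the start of the gene in RefSeq (GRCm38.p6, from the RefSeq promoter table), on chromosome 8 at chr8:11312777-11313076, minus strand, for Col4a1 and chr8:11312555-11312854, plus strand, for Col4a2. Capitals mark the 78 bases (chr8:11312777-11312854) that both windows hold, on opposite strands:
Col4a1: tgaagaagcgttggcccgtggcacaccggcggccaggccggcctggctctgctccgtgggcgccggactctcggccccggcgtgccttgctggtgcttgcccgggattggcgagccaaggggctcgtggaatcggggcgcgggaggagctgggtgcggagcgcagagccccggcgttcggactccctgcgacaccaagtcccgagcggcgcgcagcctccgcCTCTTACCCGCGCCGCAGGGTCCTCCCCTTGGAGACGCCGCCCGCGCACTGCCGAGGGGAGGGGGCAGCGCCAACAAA
Col4a2: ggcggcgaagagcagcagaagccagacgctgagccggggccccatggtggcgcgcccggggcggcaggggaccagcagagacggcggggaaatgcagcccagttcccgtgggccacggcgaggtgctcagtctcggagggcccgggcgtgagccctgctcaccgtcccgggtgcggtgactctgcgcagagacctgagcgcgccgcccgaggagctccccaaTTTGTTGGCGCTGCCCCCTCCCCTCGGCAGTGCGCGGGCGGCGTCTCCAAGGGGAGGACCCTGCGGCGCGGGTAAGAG
The annotated starts, 11312826 for Col4a1 and 11312805 for Col4a2, lie 21 bases apart. The transcripts therefore overlap between these starts, without a gap. All of the capital stretch lies after the start of either gene or of both. The windows are 74.0% and 73.7% G or C, where the median of all 32851 windows was 52.7%. The array data measure transcripts and do not test this sequence.

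Col4a1 had 882, 951 and 1399 units in KO livers, against 1341, 1735 and 1227 units in WT livers, a change of -0.42 ± 0.22 (adjusted p = 0.581). Col4a2 had 829.7, 893 and 689 units in KO livers, against 1046, 956 and 1251 units in WT livers, a change of -0.42 ± 0.21 (adjusted p = 0.549). The groups were apart for Col4a2 and overlapped for Col4a1. The arrays did not follow each other: KO replicate 3 was the highest KO array for Col4a1 and the lowest for Col4a2. A further Col4a1 probe set stood at -0.42 ± 0.56. Col4a3, Col4a4, Col4a5 and Col4a6, the chains of specialised basement membranes, were untested. Col18a1, a basement membrane collagen that liver makes in quantity and the parent of endostatin, had 21458, 27149 and 25641 units in KO livers, against 25041, 24594 and 24768 units in WT livers. Its change was -0.01 ± 0.10, with a standard error among the smallest of the group. Col15a1, a related collagen of the basement membrane zone, stood at 0.08 ± 0.42.

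Of 16 microfibrillar, fibril-associated and membrane collagens 8 were tested, 5 higher and 3 lower. The chains of type VI collagen form beaded microfibrils next to cells. Col6a3 had 778, 716 and 728 units in KO livers, against 350.3, 699 and 639.9 units in WT livers. The groups did not overlap, though KO replicate 2 and WT replicate 2 nearly met, and the change of 0.44 ± 0.30 did not pass (adjusted p = 0.666). Without WT replicate 1, the lowest array, it was 0.14. Col6a1 had 525, 747 and 467 units in KO livers, against 137, 440.0 and 520.1 units in WT livers, at 0.80 ± 0.48 (adjusted p = 0.618). It too rests on WT replicate 1, without which the change was 0.24. On that array Col6a1 was below the background of 229.9 units. Col6a2 stood at 0.02 ± 0.37.

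In the same class Col12a1, a collagen on the surface of fibrils, had the largest fitted difference of the lower genes, -0.65 ± 0.60. It had 105, 396 and 696 units in KO livers, against 708, 543 and 319.5 units in WT livers, and without KO replicate 1 the change was 0.07. Its value on KO replicate 1 was below the background of that array, 179 units. Col14a1, another fibril-associated collagen, was at -0.12 ± 0.20. The remaining tested members, Col13a1, Col16a1 and Col25a1, lay between -0.01 and 0.26.

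**Figure D3:**
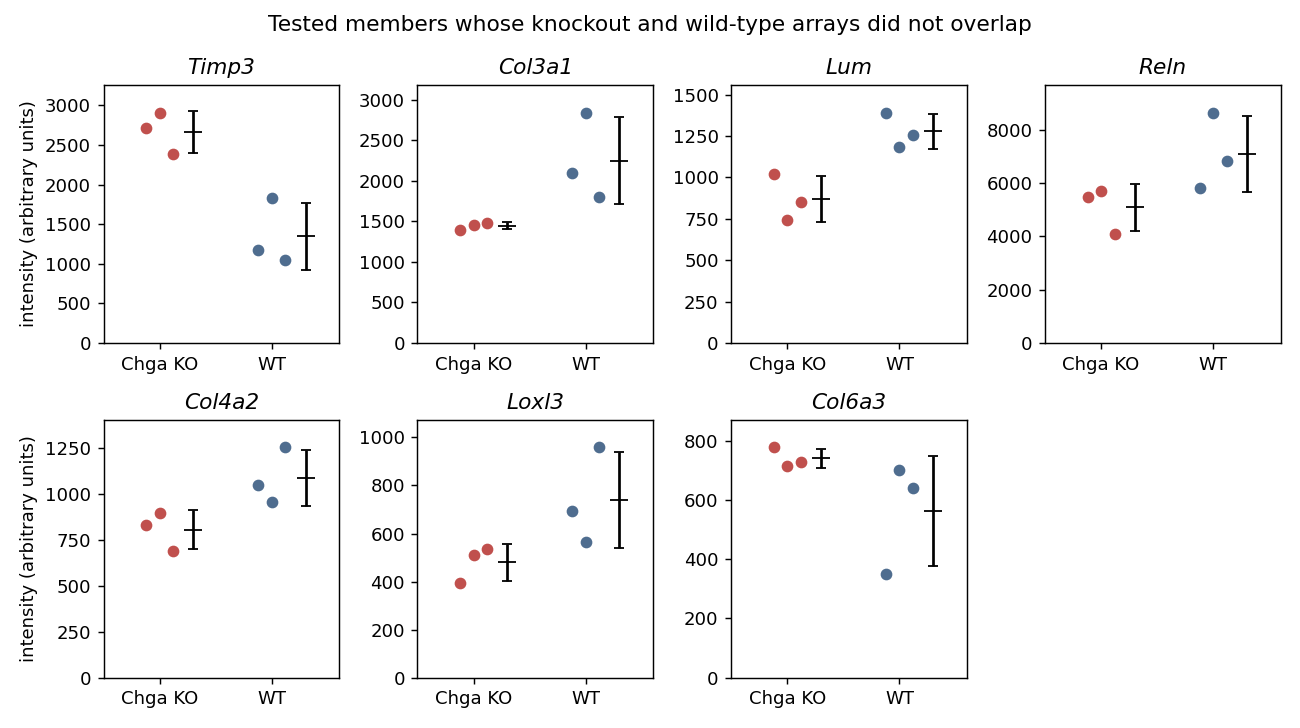
Intensity in arbitrary units (vertical axes from 0) on each array for the 7 tested genes whose groups did not overlap, KO left and WT right, with the mean and SD of each group (n = 3). Timp3 and Col6a3 were higher in KO liver, and Col3a1, Lum, Reln, Col4a2 and Loxl3 were lower.

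The 3 small leucine-rich proteoglycans, which sit on collagen fibrils, were all tested and all had a change below 0. Bgn was above 0 under 4 alternatives, at 0.0010 after quantile normalization, 0.0066 with array weights, 0.13 without KO replicate 1 and 0.010 without WT replicate 3. Lum had 1019.5, 741 and 852 units in KO livers, against 1392, 1186 and 1257 units in WT livers. Every KO array was below every WT array, and the change was -0.55 ± 0.20, or 0.681 of the WT level (adjusted p = 0.370, unadjusted 0.0171). Decorin (Dcn), which also binds transforming growth factor beta, had 10760.0, 15936 and 13477 units in KO livers, against 12234, 17719.5 and 15218 units in WT livers. Here the groups overlapped, at -0.17 ± 0.16 (adjusted p = 0.776), with -0.31 to -0.02 when an array was left out. Biglycan (Bgn) had 2817, 3798 and 4076 units in KO livers, against 3537, 3454 and 3786 units in WT livers, at -0.03 ± 0.15. Its 2 other probe sets stood at -0.31 ± 0.26 and -0.28 ± 0.17.

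Among the glycoproteins 6 of 7 were tested, 4 higher and 2 lower. Reln encodes reelin, a secreted glycoprotein that stellate cells make in the liver. It had 5486, 5684 and 4082 units in KO livers, against 5821, 8644 and 6828 units in WT livers. The KO arrays were all lower, by a small margin to WT replicate 1, and the change was -0.48 ± 0.17, or 0.719 of the WT level (adjusted p = 0.376, unadjusted 0.0184). Sparc, a collagen-binding protein of remodelling tissue, had 3988, 4871 and 5737 units in KO livers, against 4985, 5798 and 5139 units in WT livers, a change of -0.14 ± 0.15 with overlap. A second Sparc probe set had 2144, 2411 and 2807 units in KO livers, against 3300.3, 3845 and 3227 units in WT livers. There the groups were apart, at -0.50 ± 0.15 (adjusted p = 0.246).

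Fibronectin (Fn1), of which hepatocytes secrete the plasma form, had 52343, 59555 and 52979.7 units in KO livers, against 57771, 48912 and 54836 units in WT livers. The groups overlapped at 0.03 ± 0.09, the smallest standard error among the 43 genes. A dimmer Fn1 probe set had 1934, 1718 and 2089 units in KO livers, against 2284, 2116 and 2461 units in WT livers, with no overlap and a change of -0.26 ± 0.15 (adjusted p = 0.607). Of the fibulins, which link elastic fibres and basement membranes, Fbln1 stood at 1.04 ± 0.57 (adjusted p = 0.591). It had 534, 609 and 568 units in KO livers, against 402, 83.3 and 541 units in WT livers, so that its size rests on WT replicate 2. Without that array the change was 0.28. On that array Fbln1 was below the background of 151 units. A dim, untested Fbln1 probe set ran the other way, with all KO arrays below all WT arrays, at 109, 103 and 67.1 units in KO livers, against 209, 190.3 and 304 units in WT livers. There 2 WT arrays and no KO array were above background. Fbln2 (0.32 ± 0.42) and Fbln5 (0.05 ± 0.29) overlapped, and Fbln7 was untested.

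Of the laminins, the cross-shaped trimers of basement membranes, 4 of 10 were tested, and all 4 had a change below 0, with a median of -0.17, though Lama5, Lama3 and Lamc1 changed sign when an array was left out. They were Lama5 (-0.06 ± 0.21), Lamb1 (-0.13 ± 0.36), Lama3 (-0.20 ± 0.44) and Lamc1 (-0.26 ± 0.39), and each overlapped between the groups by its brightest probe set. Dim, untested Lamb1 probe sets were apart in opposite directions. One direction was higher, at 212, 70.7 and 190 units in KO livers, against 4.1, 45.8 and 28.8 units in WT livers. The other was lower, at 19.1, 49.9 and 60.4 units in KO livers, against 237, 138 and 65.7 units in WT livers. An untested Lama4 probe set had all KO arrays below all WT arrays, at 22.0, 33.8 and 97.2 against 208, 133 and 265 units.

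The lysyl oxidases cross-link collagen and elastin, and 2 of 4 were tested. Loxl3 had 392, 511 and 535 units in KO livers, against 692, 567 and 959 units in WT livers. All KO arrays were below all WT arrays, with a change of -0.59 ± 0.29 (adjusted p = 0.549). Loxl4 was at 0.37 ± 0.40 with overlap. Lox itself was dim, at 273, 49.1 and 68.1 units in KO livers, against 13.1, 42.2 and 128 units in WT livers.

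Only 3 of 18 metalloproteinases were bright enough to test. Mmp14, a membrane-bound collagenase that activates pro-Mmp2, had 1041, 1220.1 and 926 units in KO livers, against 1465, 1352 and 1219.8 units in WT livers. The highest KO array and the lowest WT array were almost equal, and the change was -0.34 ± 0.18 (adjusted p = 0.588). Mmp2, a gelatinase of mesenchymal cells, stood at -0.35 ± 0.34, with -0.54 to -0.07 when an array was left out. A dim, untested Mmp2 probe set had 66.3, 39.5 and 59.7 units in KO livers, against 149, 136 and 269.7 units in WT livers, with 1 of the 6 arrays above background. Mmp19 stood at 0.18 ± 0.23. The neutrophil and macrophage enzymes Mmp8, Mmp9 and Mmp12 and the collagenase Mmp13 were untested. Of 9 Adamts and Adamts-like genes, 3 were tested and none was apart between the groups: Adamts1, which cuts proteoglycans, stood at 0.28 ± 0.31, Adamts15 at 0.14 ± 0.38 and Adamts7 at -0.19 ± 0.35.

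Of the stellate cell and myofibroblast genes, 3 of 4 were tested and each had a change below 0. Pdgfrb was above 0 under 3 alternatives, at 0.00022 after median centring, 0.18 without KO replicate 2 and 0.087 without WT replicate 3, and Lrat was at 0.0053 without KO replicate 1. Lrat makes the retinyl esters that stellate cells store. It had 273, 707 and 306 units in KO livers, against 509, 465 and 425 units in WT livers. KO replicate 2 was the highest array and the other KO arrays the lowest, and the change was -0.24 ± 0.40 (adjusted p = 0.881). Acta2, the smooth muscle actin of myofibroblasts and vessel walls, had 704, 995 and 1539 units in KO livers, against 1272, 1435 and 1529 units in WT livers, at -0.45 ± 0.26 (adjusted p = 0.609). Without KO replicate 1 the change was -0.18, and without KO replicate 3 it was -0.74. A dim, untested Acta2 probe set had 38.2, 178 and 41.7 units in KO livers, against 356, 209.9 and 307 units in WT livers. There all KO arrays were below all WT arrays, and no KO array but all 3 WT arrays were above background. Pdgfrb, the receptor through which platelet-derived growth factor acts on these cells, had 773, 445 and 581 units in KO livers, against 532, 568 and 682 units in WT livers, at -0.01 ± 0.29. Desmin (Des), the intermediate filament of stellate cells, was untested at 337, 99.9 and 381 units in KO livers, against 369, 254 and 623 units in WT livers.

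Stellate cell markers outside the group were set beside these values. Of 13 listed genes 7 were tested, 3 higher and 4 lower, with 0 called and a median of -0.10. Their summed intensity ran from 13094 to 15675 units in KO arrays and from 13649 to 15873 units in WT arrays. Angptl6 (0.25 ± 0.17), Ecm1 (-0.22 ± 0.16), Vim (-0.16 ± 0.14) and Rgs5, a pericyte marker (0.14 ± 0.15), had the smallest p. For Angptl6 all KO arrays were above all WT arrays, as for 7.77% of all tested genes. Smooth muscle and portal fibroblast markers had 3 of 9 tested, 2 higher and 1 lower, with 0 called.

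Markers of other liver cells were counted in the same way. Kupffer cell and macrophage markers had 1 of 10 tested genes higher and 9 lower, with a median of -0.23 and 0 called. Their sum ran from 19788 to 31558 units in KO arrays and from 24949 to 32403 units in WT arrays. Cd68 (-1.40 ± 0.67) and C1qc (-0.37 ± 0.21) were apart between the groups, with KO lower, as were 7.84% of all tested genes. Cd68 had 403, 49.3 and 507 units in KO livers, against 708, 652 and 530 units in WT livers. Its value on KO replicate 2 was below the background of that array, 322 units. Endothelial markers had 2 of 12 higher and 10 lower, with a median of -0.05 and 0 called, and their sum ran from 30971 to 31687 units in KO arrays and from 31766 to 31816 units in WT arrays. Hepatocyte markers had 8 of 10 higher and 2 lower, with a median of 0.11 and 0 called. Among them Cps1 (0.11 ± 0.07) was apart with KO higher, and Pck1 (-0.15 ± 0.10) with KO lower. Of all tested genes, 7.77% were apart with KO higher and 7.84% with KO lower. Of 6 bile duct markers 5 were on the array and 0 were bright enough to test. No marker of these lists was at 0 on all arrays. The part of other cell types in the values of Col3a1, Lum, Reln and Timp3 was not tested.

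Genes that act on the matrix from outside the group were read from the same fit, each by its brightest probe set alone. Of the collagen processing genes (hydroxylases, the chaperone Serpinh1 and procollagen proteinases), 12 of 14 were tested, 5 higher and 7 lower, with 0 called. Crtap, part of the complex that hydroxylates proline, stood at -0.34 ± 0.21 with the smallest p. The transforming growth factor beta axis had 11 of 17 listed genes tested, 5 higher and 6 lower, with 0 called. Its target Tgfbi had 1784, 3409 and 3094 units in KO livers, against 3649, 3760.0 and 3798 units in WT livers, at -0.49 ± 0.21 (adjusted p = 0.490). The signal mediator Smad4 stood at -0.29 ± 0.12 (adjusted p = 0.453) and the latent complex protein Ltbp4 at 0.63 ± 0.29 (adjusted p = 0.505). The corepressor Skil was at 0.33 and the ligand Tgfb1 at 0.56 ± 0.36 (adjusted p = 0.653). Tgfbi and Smad4 (lower in KO) and Ltbp4, Skil and Tgfb1 (higher in KO) had groups that did not overlap. Among all tested genes the KO arrays lay above the WT arrays for 7.77% and below them for 7.84%. Ltbp1, a dim, untested gene of this list, ran opposite to Ltbp4. It had 20.2, 36.1 and 39.8 units in KO livers, against 233, 122 and 257 units in WT livers. There 2 WT arrays and no KO array were above background. All KO arrays were below all WT arrays for Ltbp1, as for 4.12% of all untested genes.

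Matrix receptors held the smallest p of these lists. Of 18 listed genes 10 were tested, 6 higher and 4 lower, with 0 called. The syndecan Sdc1, a heparan sulfate proteoglycan of the hepatocyte surface, had 31799.9, 30155 and 31144 units in KO livers, against 23395, 23332 and 25493 units in WT livers. All KO arrays were above all WT arrays, at 0.37 ± 0.09 (adjusted p = 0.116). Itgb1, the integrin beta 1 chain shared by collagen, laminin and fibronectin receptors, had 4085, 2629 and 3049.8 units in KO livers, against 4999, 4699.6 and 5209.6 units in WT livers. All KO arrays were below all WT arrays, at -0.63 ± 0.16 (adjusted p = 0.158). Dystroglycan (Dag1), a laminin receptor, stood at 0.31 ± 0.13 with the groups apart (adjusted p = 0.451). Sdc1 and Dag1 each had 4 tested probe sets and Itgb1 had 2, of which only the brightest is given here.

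Other matrix proteins had 13 of 26 tested, 8 higher and 5 lower, with 0 called. Mgp, an inhibitor of calcification, stood at -0.79 ± 0.52, and the fibrinogen chain Fga at 0.17 ± 0.10. On KO replicate 3 Mgp had 121 units, below the background of 174 units. The plasmin system had 3 of 5 tested with 0 called, and Serpinf2, the plasmin inhibitor, stood at -0.25 ± 0.11 (adjusted p = 0.489). The list of platelet-derived growth factors and stellate activation had 5 of 8 tested with 0 called. Its ligand Pdgfa stood at -0.47 ± 0.27.

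The 43 tested genes were also read array by array. The median deviation from each gene's mean over the 6 arrays was -0.06, 0.07 and -0.01 in KO arrays and 0.02, 0.04 and 0.09 in WT arrays on the log2 scale. KO replicate 1 was the lowest of the 6 arrays for 14 genes, and WT replicate 3 was the lowest for 1. On WT replicate 3, 33 of the 43 genes (76.7%) were above their own mean, beside 56.8% of all tested genes, and on KO replicate 1 there were 17 (39.5%), beside 52.3%. KO replicate 2 was the highest for 12.

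**Figure D4:**
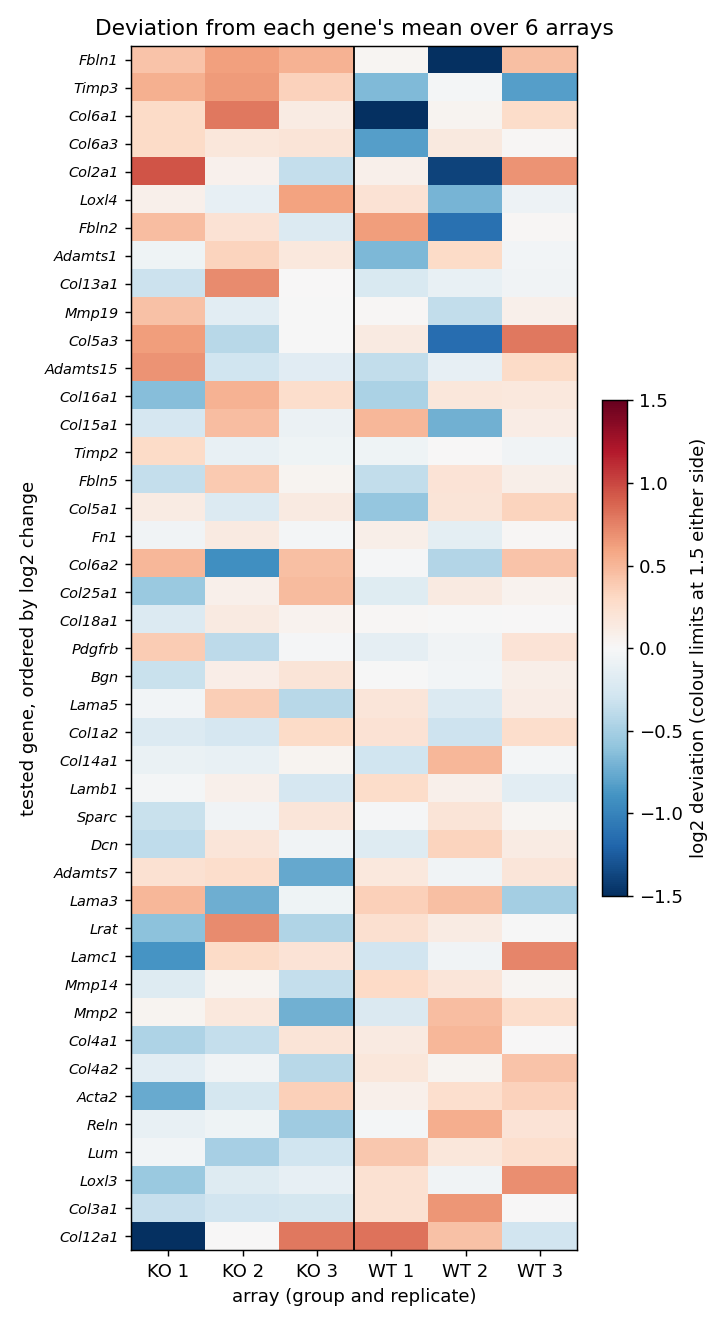
Log2 deviation of each of the 43 tested genes from its own mean over the 6 arrays (rows ordered by KO minus WT change, columns by group and replicate, colour limits at 1.5 either side of 0). Arrays differ from gene to gene, and KO replicate 1 is the lowest array for 14 genes.

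The filter left 52 genes untested. Their highest value on any array was 853 units, 9 of them were above background on no array, and none was above it on all 6. By the brightest probe set, all KO arrays were above all WT arrays for 5 of them (9.62%), beside 5.80% of all untested genes, and below them for 0, beside 4.12%. Over the 94 untested probe sets of the group, dim probe sets of tested genes included, KO was above WT for 6, beside 5.88% of all untested probe sets, and below WT for 7, beside 4.29%. The 5 genes were Timp4, Adamts8, Col9a1, Mmp11 and Mmp13. Adamts8 had 321, 63.1 and 361 units in KO livers, against 35.4, 41.7 and 47.2 units in WT livers, with 2 KO arrays and no WT array above background. Col9a1 had 446, 367 and 367 units in KO livers, against 35.5, 282 and 235 units in WT livers. Mmp11 and Mmp13 were not above background on any array. Of the 7 lower probe sets, the one with the most arrays above background among untested genes belonged to Col4a5, at 336, 75.7 and 14.6 units in KO livers, against 482, 520.0 and 346 units in WT livers, while the brightest Col4a5 probe set overlapped.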

How the data were processed

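The authors deposited 1 table of linear probe set intensities for 6 arrays. GCOS 1.2 was used, per the submitters' processing notes, and in the deposited values the arrays were scaled to a common level (means after trimming 2% at each end of 2501.32 to 2501.42). The rule of the scaling and detection calls are not given in the sources used here.

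Of 22690 probe sets, 64 controls were left out. The platform annotation gave 20380 probe sets 1 gene, 691 several and 1555 none, and symbols were updated through RefSeq (GRCm38.p6) gene identifiers, which matched 20351. A single probe set of several genes held a gene of the group (Loxl2) and was not used. The rule on gene names found 95 genes, of which 63 had a RefSeq promoter window. The upper 60% of probe sets by mean of log2(intensity + 16) over all arrays were compared by a linear model without covariates (limma 3.58.1, R 4.3.3, variance prior allowed to follow intensity), with Benjamini-Hochberg adjustment over 13576 probe sets and a threshold of 0.05. This filter kept probe sets with a mean log2 value of at least 8.48, which is 341 units. Just below it lay Mmp9 (8.46) and Col4a5 (8.43), and just above it Col2a1 (8.51) and Lamb1 (8.53). SDs are over 3 arrays, and no exact permutation test was run, since 3 arrays against 3 cannot go below p = 0.1. The procedure was tested on simulated data. The number of arrays limits the precision.

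The genes and lists were chosen with earlier results of these data known. Genes named in full were Chga, the 15 tested members with the smallest p, the 10 brightest, the genes the rule lists one by one, the collagens of types I, III, IV, V and VI, the Timp genes and the tested lysyl oxidases, fibulins and laminins, with up to 4 genes per further list. Tgfb1, other untested genes and further probe sets of named genes were named after their values were seen. The alternatives were 1 smaller and 2 larger pseudocounts, quantile normalization, median centring, no filter, the upper 40%, no trend, a block for the replicate number, weights per array, averaging a gene's tested probe sets, and leaving out 1 array at a time. The background reference (27 dim Bacillus controls) was also chosen after the values were seen. The labels do not say whether shared replicate numbers pair the arrays.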

Additional observations from a re-analysis of the deposited data

How the results depend on the processing

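Under every alternative run, 0 genes of the group passed the adjusted threshold, except 1 (Timp3) without WT replicate 2, so that leaving out an array gave 0 to 1. Over all probe sets, 51 passed in the reported fit, 85 with the largest pseudocount, 7 without the intensity trend, 82 with array weights, 27 with the replicate block, and 21 to 57 with an array left out. Same-numbered KO and WT arrays had correlations of -0.06, -0.06 and -0.07 in their deviations from the group means. For arrays of different numbers these ran from -0.02 to 0.08. Deviations from means of 3 arrays cannot show whether the numbers pair the arrays, and the labels do not say. The block left 0 genes of the group past the threshold. Timp3 ran from 0.50 to 1.25 over all alternatives, with adjusted p-values from 0.0207 to 0.550. Of the 34 tested genes named by the rule, 18 kept their direction under all alternatives run, and 28 moved by over 1.5 times with an array left out, all but Col3a1, Col4a2, Lum, Mmp14, Reln and Timp3.

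Without a filter 43 of 95 genes (45.3%) were lower and 12 (12.6%) had groups that did not overlap, beside 50.4% and 13.6% of all genes, and in the upper 40% these were 13 and 4 of 18 (72.2% and 22.2%), beside 53.3% and 17.1%. The median change was -0.12 in the upper 40% and -0.11 with a gene's tested probe sets averaged, and -0.10 to 0.010 with an array left out. Then 7 to 13 genes (15.9% to 31.0%) did not overlap, beside 24.0% to 30.5% of all genes. With quantile normalization Bgn was at 0.0010 and Fn1 at -0.029, and with median centring Col18a1 was at 0.0044 and Pdgfrb at 0.00022. With array weights Bgn was at 0.0066, Col18a1 at 0.025, Col5a1 at -0.0016, Col6a2 at -0.16 and Lama5 at 0.035. With tested probe sets averaged Col5a1 was at -0.13 and Fn1 at -0.11. With an array left out the sign was open for Bgn (-0.13 to 0.13), Col12a1 (-1.21 to 0.075), Col14a1 (-0.30 to 0.10), Col18a1 (-0.080 to 0.089), Col5a1 (-0.25 to 0.21), Col5a3 (-0.40 to 0.57), Col6a2 (-0.22 to 0.49), Fbln2 (-0.16 to 0.71), Fbln5 (-0.13 to 0.24), Fn1 (-0.037 to 0.083), Lama3 (-0.51 to 0.12), Lama5 (-0.26 to 0.13), Lamc1 (-0.47 to 0.11), Lrat (-0.65 to 0.0053), Pdgfrb (-0.21 to 0.18) and Timp2 (-0.047 to 0.15). The cause was not tested. Of the 95 genes, 37 were above background on all 6 arrays.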
